A study of Mus musculus with 12 samples.

Results

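Genes of proliferation and the cell cycle were followed in cardiomyocytes from mouse hearts. The set held 42 genes chosen by name: cyclins, factors that license and fire DNA replication, enzymes of deoxynucleotide supply, and genes of chromosome segregation and cell division. All 42 were found among the 22584 genes of the count table. By its title, the series is about recapping telomeres as a treatment for cardiorenal disease. Polyadenylated RNA was sequenced in 12 libraries, 3 in each of 4 groups. All groups were WT mice labelled C57BL6. The CKD JV001 and CKD saline groups shared a model of chronic kidney disease made by combining AngII with dietary salt loading and the surgical removal of 1 kidney, and were injected with JV001 or with saline. The sham JV001 and sham saline groups had a sham operation and the same injections. The design gives 12 weeks for CKD JV001, sham JV001 and sham saline, and no duration for CKD saline. JV001 is known here by its code name alone. The labels do not say that the 3 libraries of a group came from separate animals, so the p-values speak only of how far these libraries spread, which may be technical.

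Cyclins switch on cyclin-dependent kinases in turn. D-type cyclins act early in G1, and with E-type cyclins they release E2F transcription factors, which switch on the replication genes. The MCM proteins form the ring helicase that is loaded onto origins before S phase and unwinds the DNA. The genes of G2 and mitosis are then switched on through FOXM1 and B-MYB, act for a short time and are degraded. Adult mouse cardiomyocytes rarely divide, and mRNAs of this kind in a heart can also come from dividing endothelial cells, fibroblasts and blood cells.

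The libraries held 25233561 to 37000337 counts, and no 2 libraries of a group agreed within sampling noise. The mean chi-square per gene between libraries 1 and 2 was 8.31 in CKD saline and 23.3 in CKD JV001. Between these and library 3 it was 194 to 197 in CKD saline and 308 to 356 in CKD JV001. In sham JV001 it was 29.5 to 42.4. In sham saline it was 28.3 for libraries 2 and 3, and 226 to 256 with library 1. Without library 3, a CKD group rests on 2 libraries that are closer to each other. The 12 ventricular cardiomyocyte markers were abundant in every library, with a summed level of 27756 to 61992 CPM (counts per 1000000 counts of the library, with TMM factors) in CKD JV001, 55586 to 100210 CPM in CKD saline, 88882 to 97049 CPM in sham JV001 and 81584 to 110890 CPM in sham saline. Markers of other cells were present beside them. The 10 fibroblast markers summed to 2844 to 3724 CPM in CKD JV001, 620.0 to 2433 CPM in CKD saline, 606 to 1277 CPM in sham JV001 and 304 to 1156 CPM in sham saline. Library 3 of both CKD groups stood apart. The mean level of the neutrophil markers was 4.59 log2 CPM in CKD JV001 library 3, against 0.34 and 0.18 log2 CPM in libraries 1 and 2 of that group. CKD saline library 3 had 2.17 log2 CPM, against -1.03 and -0.83 log2 CPM in its group. Results that move with these libraries are given with and without them. In bulk RNA, fewer cells of a type and less RNA per cell cannot be told apart.

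Most of the 42 genes were scarce. By length-corrected level (FPKM, averaged over the 12 libraries), 11 genes reached 1 FPKM or more, 31 were below 1 FPKM and 3 of those were below 0.1 FPKM. The D-type cyclins led with 20.5 FPKM for Ccnd3, 17.3 FPKM for Ccnd1 and 16.1 FPKM for Ccnd2. Cenpa, the histone H3 variant that marks centromeres, followed with 15.3 FPKM. After a gap came the MCM subunits, from 3.32 FPKM for Mcm7 to 1.16 FPKM for Mcm5, and Rrm2 with 1.09 FPKM. Genes of mitosis lay lower, from 0.773 FPKM for Cdc20 to 0.0482 FPKM for Bub1, a kinase of the spindle checkpoint. For 27 genes the median library held fewer than 50 reads. Plk1, a mitotic kinase, had 0 reads in sham JV001 library 1, and Bub1 had 0 reads in CKD saline library 1 and in sham saline library 3. A count of 0 allows up to 3 reads, and this limit covers counting error only. All 42 genes passed the filter on low counts.

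**Figure D1:**
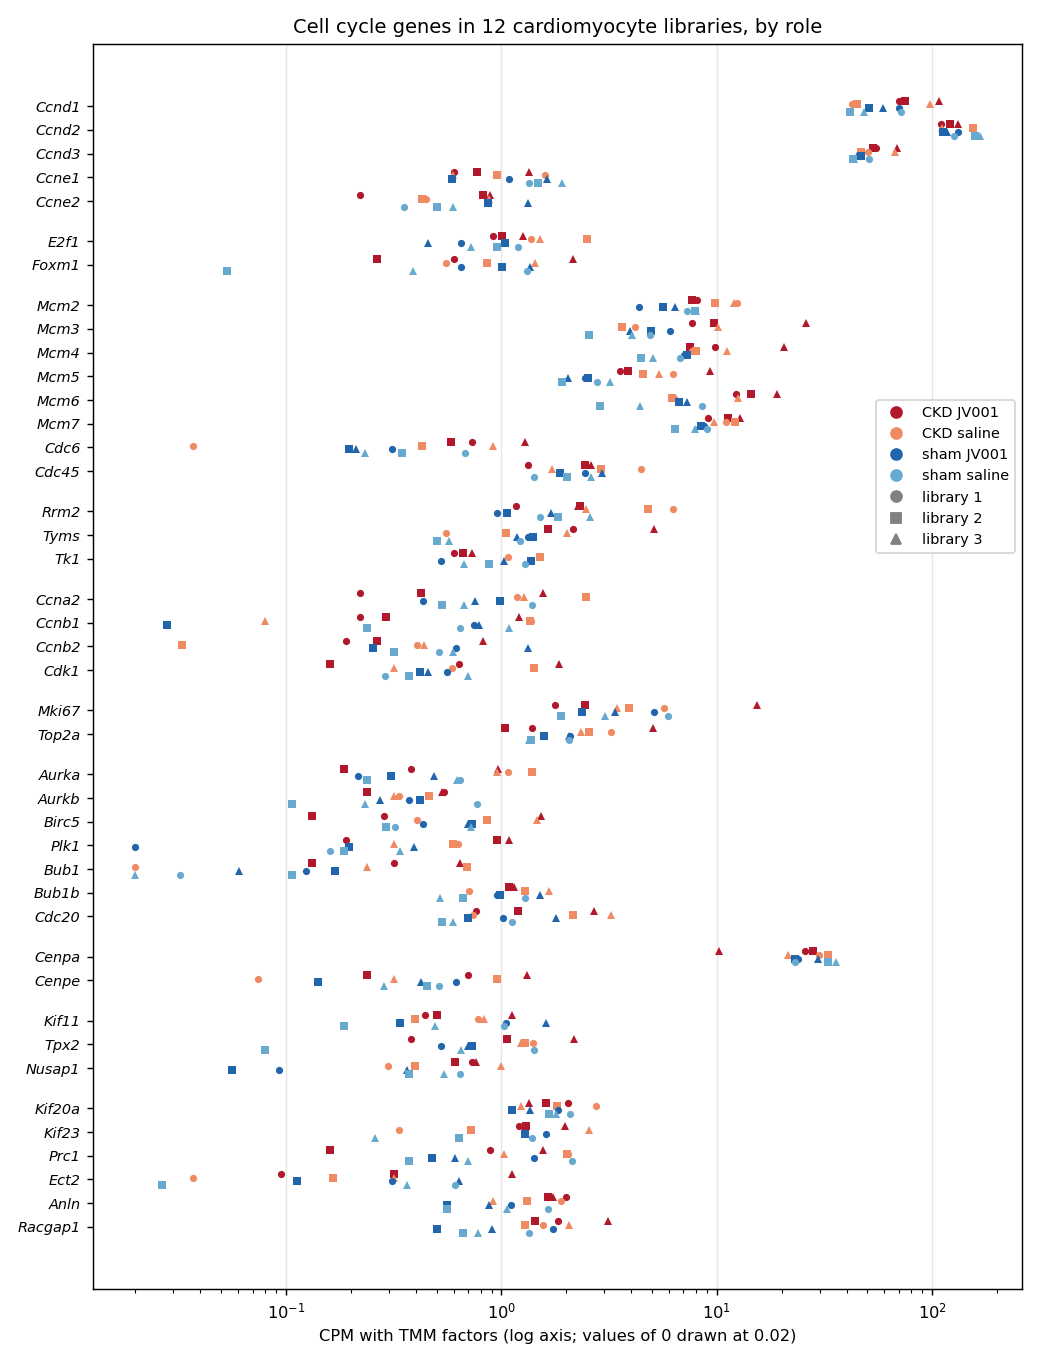
Level of each of the 42 genes in the 12 libraries, in CPM with TMM factors on a log axis, with genes down the page by role, groups by colour and libraries 1 to 3 by symbol; values of 0 are drawn at 0.02 CPM. The D-type cyclins and Cenpa lie above 10 CPM in every library, the MCM genes between 1.91 and 26.0 CPM, and most genes of mitosis near or below 1 CPM.

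The DNA at the start of these genes holds motifs known from cell cycle promoters. RefSeq promoter windows of 250 bases before to 50 after a gene's start (build GRCm38.p6) were matched for 33 of the 42 genes, leaving Ccnd1, Ccnd2, Ccne2, Foxm1, Mcm4, Ccna2, Aurkb, Tpx2 and Kif20a. A CHR element (TTTGAA or TTCGAA, either strand), the site known for genes of G2 and mitosis, was found in 16 of 20 genes of S, G2 and M (80%). It was found in 3 of 13 genes of G1/S and replication (23.1%) and in 19.2% of all 32851 windows. An E2F core (the letters TTCCCGC or the letters TTCGCGC, and likewise the letters TTGCCGC or the letters TTGGCGC, on either strand) was found in 6 of 13 genes of G1/S and replication (46.2%), 4 of 20 genes of S, G2 and M (20%) and 9.57% of all windows. A CCAAT box (CCAAT, either strand) was found in 25 of 33 genes (75.8%), against 37.4% of all windows. These are matches of letters, not measured binding. For 4 genes, Ccnd3, Mcm7, Prc1 and Ect2, the table holds 2 windows, and a match in either was counted. Shown here, as an example of each of 6 roles, is a window of its most abundant gene with an entry, with the matched letters in capitals. They lie at chr17:47504801-47505100 for the D-type cyclin Ccnd3 (plus strand), chr5:138171834-138172133 for the helicase subunit Mcm7 (minus strand) and chr12:24708004-24708303 for the ribonucleotide reductase subunit Rrm2 (plus strand). They lie at chr4:118437294-118437593 for Cdc20, activator of the anaphase ligase (minus strand), chr5:30666636-30666935 for the centromeric histone Cenpa (plus strand) and chr15:99651607-99651906 for Racgap1, a regulator of cytokinesis (minus strand).
Ccnd3: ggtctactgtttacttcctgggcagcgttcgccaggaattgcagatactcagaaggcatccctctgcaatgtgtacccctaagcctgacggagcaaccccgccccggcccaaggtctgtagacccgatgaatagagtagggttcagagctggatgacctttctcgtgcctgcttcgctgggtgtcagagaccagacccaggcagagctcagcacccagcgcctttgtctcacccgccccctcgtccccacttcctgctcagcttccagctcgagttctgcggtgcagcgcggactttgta
Mcm7: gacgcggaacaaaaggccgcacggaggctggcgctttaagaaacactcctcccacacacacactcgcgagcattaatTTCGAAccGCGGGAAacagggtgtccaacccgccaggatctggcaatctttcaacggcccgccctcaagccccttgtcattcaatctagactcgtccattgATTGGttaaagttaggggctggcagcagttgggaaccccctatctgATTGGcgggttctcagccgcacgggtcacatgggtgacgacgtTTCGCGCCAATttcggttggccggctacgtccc
Rrm2: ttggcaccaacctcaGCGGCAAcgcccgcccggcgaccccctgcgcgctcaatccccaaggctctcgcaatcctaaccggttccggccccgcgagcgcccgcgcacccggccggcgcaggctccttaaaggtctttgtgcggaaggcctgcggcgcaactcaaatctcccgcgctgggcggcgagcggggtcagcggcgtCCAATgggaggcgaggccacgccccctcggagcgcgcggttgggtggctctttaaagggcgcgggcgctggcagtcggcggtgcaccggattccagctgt
Cdc20: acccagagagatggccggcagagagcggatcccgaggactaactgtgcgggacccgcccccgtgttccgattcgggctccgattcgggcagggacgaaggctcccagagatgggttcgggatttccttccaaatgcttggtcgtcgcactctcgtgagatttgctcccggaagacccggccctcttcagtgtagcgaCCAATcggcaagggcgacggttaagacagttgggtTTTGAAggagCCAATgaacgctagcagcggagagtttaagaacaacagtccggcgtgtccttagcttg
Cenpa: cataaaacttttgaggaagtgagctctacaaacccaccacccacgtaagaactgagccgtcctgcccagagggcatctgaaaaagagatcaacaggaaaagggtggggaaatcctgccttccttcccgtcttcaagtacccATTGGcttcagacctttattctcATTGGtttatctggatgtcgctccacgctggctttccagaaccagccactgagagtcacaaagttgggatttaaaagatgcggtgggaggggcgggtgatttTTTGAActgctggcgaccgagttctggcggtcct
Racgap1: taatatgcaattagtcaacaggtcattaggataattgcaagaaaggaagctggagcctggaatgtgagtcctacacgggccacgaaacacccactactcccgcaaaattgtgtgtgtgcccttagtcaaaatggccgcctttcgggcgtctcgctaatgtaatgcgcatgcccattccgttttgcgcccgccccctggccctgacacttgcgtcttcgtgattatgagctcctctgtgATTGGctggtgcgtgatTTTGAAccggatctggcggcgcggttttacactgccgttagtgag
Cdc20 and Racgap1 show the CHR element and a CCAAT box close to the start. Positions are counted from 0 at the gene's start. In Cdc20 the first base of the CHR element lies at -18, between CCAAT boxes that begin at -53 and -8. In Racgap1 it lies at 5, after a CCAAT box that begins at -12. In Cenpa the CHR element begins at 16, after CCAAT boxes at -109 and -86. In Rrm2 an E2F core begins at -235 and a CCAAT box at -50, with no CHR match. Mcm7 has a CHR element at -173, CCAAT boxes at -72 and -26, and E2F cores that begin at -165, 17 and 20. The last of these overlaps the core before it and a CCAAT box that begins at 23. The Ccnd3 window shown holds none of these motifs, and the other Ccnd3 window holds a CCAAT box.

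None of the 42 genes passed the test in any of the 5 contrasts. The test was edgeR's quasi-likelihood test, with p-values adjusted by Benjamini-Hochberg over 15004 genes and a threshold of 0.05. Over all tested genes the same test called 0% in CKD JV001 against CKD saline, 0% in sham JV001 against sham saline, 0% in CKD saline against sham saline, 0.02% in CKD JV001 against sham JV001 and 0% for the interaction. In the values themselves, CKD JV001 library 3 held the highest level of 10 of the 18 genes of G1/S and replication and of 9 of the 24 genes of S, G2 and M. DESeq2 called 3 of the 42 genes in CKD JV001 against sham JV001, where it called 12.6% of all tested genes. It called 0 in the other contrasts, where it called 0% to 0.282% of all tested genes. Limma voom with quality weights called 15 in CKD JV001 against CKD saline (44.9% of all tested genes) and 5 in CKD JV001 against sham JV001 (29.6%). In the other contrasts voom called 0 of the 42, and 0.0333% to 0.133% of all tested genes. Without CKD saline library 3, edgeR called 4 in CKD JV001 against CKD saline (21.3%) and 1, Mcm3, in CKD JV001 against sham JV001 (10.4%). With only the groups compared in the fit it called 1, Mcm6, in CKD JV001 against sham JV001 (5.51%).

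The D-type cyclins pair with Cdk4 and Cdk6 at the start of the cycle. Ccnd3 had 54.6, 53.2 and 68.3 CPM in CKD JV001, 50.5, 46.6 and 67.4 CPM in CKD saline, 46.0, 46.8 and 44.8 CPM in sham JV001 and 51.0, 42.7 and 43.1 CPM in sham saline. The CKD JV001 libraries lay above the sham JV001 libraries without overlap, by 0.35 on the log2 scale (SE 0.17, adjusted p = 0.19, edgeR). Ccnd1 had 69.8, 74.5 and 107 CPM in CKD JV001, 42.2, 44.9 and 97.1 CPM in CKD saline, 70.2, 51.1 and 59.2 CPM in sham JV001 and 71.5, 41.5 and 48.0 CPM in sham saline. CKD saline library 3 was far above libraries 1 and 2 of its group, and the groups overlapped in all 4 contrasts.

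Without CKD saline library 3, Ccnd1 passed the test in CKD JV001 against CKD saline, with a log2 fold change of 0.94 (SE 0.27, adjusted p = 0.0392), where 21.3% of all tested genes passed. With all libraries its log2 fold change was 0.45 (SE 0.33, adjusted p = 0.396). Ccnd2, described after its values were seen, ran the other way, with 109.6, 121 and 131 CPM in CKD JV001 and 155, 155 and 111 CPM in CKD saline. The ratio of Ccnd1 to Ccnd2 on the FPKM scale was 1.39, 1.35 and 1.79 in CKD JV001, against 0.595, 0.635 and 1.92 in CKD saline. In sham JV001 it was 1.16, 0.999 and 1.11, against 1.23, 0.575 and 0.629 in sham saline. The 4 lowest ratios were in libraries 1 and 2 of CKD saline and libraries 2 and 3 of sham saline. The mean fibroblast marker level, in log2 CPM, was 6.44, 6.54 and 6.94 in CKD JV001, 4.35, 4.30 and 6.29 in CKD saline, 4.94, 5.45 and 4.46 in sham JV001 and 5.19, 4.71 and 3.75 in sham saline. The part of these markers in the cyclin values was not tested. The E-type cyclins Ccne1 and Ccne2, which complete entry into S phase, lay between 0.222 and 1.92 CPM, and Ccne2 was higher in sham JV001 than in sham saline without overlap.

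E2F1 switches on genes of S phase, and FOXM1 those of G2 and mitosis. E2f1 had 0.918, 1.01 and 1.26 CPM in CKD JV001, 1.37, 2.51 and 1.51 CPM in CKD saline, 0.649, 1.04 and 0.454 CPM in sham JV001 and 1.19, 0.955 and 0.725 CPM in sham saline. All 3 CKD saline libraries lay above all libraries of the other groups. The log2 fold change was -0.76 in CKD JV001 against CKD saline (SE 0.43, adjusted p = 0.311) and 0.91 in CKD saline against sham saline (SE 0.43, adjusted p = 0.941, edgeR). These contrasts share the CKD saline libraries. Foxm1 had 0.602, 0.265 and 2.14 CPM in CKD JV001, 0.555, 0.858 and 1.43 CPM in CKD saline, 0.649, 1.01 and 1.36 CPM in sham JV001 and 1.32, 0.0530 and 0.389 CPM in sham saline. Its groups overlapped in every contrast.

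The 6 subunits of the MCM helicase all had log2 fold changes above 0 between CKD and sham, with JV001 and with saline. With JV001 in both groups, CKD against sham, all 6 had groups that did not overlap, with CKD JV001 higher, where 22.9% of all tested genes were higher without overlap. In CKD saline against sham saline, Mcm2, Mcm4, Mcm5 and Mcm7 had groups that did not overlap, 4 of 6, with CKD saline higher, where 4.12% of all tested genes were. The median log2 fold change of the 6 was 0.98 in CKD JV001 against sham JV001 and 0.65 in CKD saline against sham saline, where the medians over all tested genes were 0.02 and 0.01. These contrasts share no library, and no subunit passed the test in either. The smallest adjusted p was 0.105, for Mcm5 in CKD JV001 against sham JV001 (log2 fold change 1.25, SE 0.37, edgeR). All 6 log2 fold changes stayed above 0 in both contrasts under each of 23 alternatives. Some of these leave out a library that does not enter the contrast, which could hardly change a sign.

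Mcm7 had 9.06, 11.3 and 12.8 CPM in CKD JV001, 11.1, 12.1 and 9.65 CPM in CKD saline, 8.72, 8.47 and 8.24 CPM in sham JV001 and 8.97, 6.36 and 7.88 CPM in sham saline. Each of the 6 CKD libraries was above each of the 6 sham libraries. The log2 fold changes were 0.38 with JV001 (SE 0.19, adjusted p = 0.207) and 0.50 with saline (SE 0.19, adjusted p = 0.941). Mcm3 had 7.69, 9.71 and 26.0 CPM in CKD JV001, 4.18, 3.63 and 10.2 CPM in CKD saline, 6.09, 4.96 and 3.97 CPM in sham JV001 and 4.92, 2.55 and 4.04 CPM in sham saline. Library 3 was the highest of its group in both CKD groups. The log2 fold change of Mcm3 was 1.53 in CKD JV001 against sham JV001 (SE 0.51, adjusted p = 0.116) and 0.80 without CKD JV001 library 3 (SE 0.43, adjusted p = 0.353, edgeR).

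The other subunits are described after their values were seen. Mcm5 had 3.55, 3.87 and 9.27 CPM in CKD JV001, 6.26, 4.52 and 5.40 CPM in CKD saline, 2.44, 2.52 and 2.03 CPM in sham JV001 and 2.76, 1.91 and 3.19 CPM in sham saline. Every CKD library was above every sham library. Without CKD JV001 library 3, its log2 fold change in CKD JV001 against sham JV001 was 0.67 (SE 0.28, adjusted p = 0.265). Mcm6 had 12.2, 14.5 and 19.1 CPM in CKD JV001, 6.29, 6.20 and 12.6 CPM in CKD saline, 6.65, 6.70 and 7.30 CPM in sham JV001 and 8.55, 2.86 and 4.40 CPM in sham saline. It was high in CKD JV001 and in library 3 of CKD saline. Its log2 fold change was 1.15 in CKD JV001 against sham JV001 (SE 0.39, adjusted p = 0.118) and 0.87 in CKD JV001 against CKD saline (SE 0.39, adjusted p = 0.276, edgeR). Without CKD JV001 library 3 these were 0.95 (SE 0.42, adjusted p = 0.277) and 0.68 (SE 0.42, adjusted p = 0.672). Mcm4 lay between 4.43 and 20.5 CPM, highest in CKD JV001 library 3. In CKD JV001 against sham JV001 the log2 fold change of Mcm4 was 0.81, and 0.27 without that library (SE 0.24, adjusted p = 0.558).

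Mcm2 had another pattern from its partners. It had 8.07, 7.67 and 7.63 CPM in CKD JV001, 12.4, 9.76 and 12.0 CPM in CKD saline, 4.36, 5.64 and 6.39 CPM in sham JV001 and 7.26, 7.88 and 8.01 CPM in sham saline. JV001 was below saline without overlap in both surgeries, and CKD was above sham without overlap with both injections. The log2 fold change was -0.55 in CKD JV001 against CKD saline (SE 0.18, adjusted p = 0.276) and -0.50 in sham JV001 against sham saline (SE 0.18, adjusted p = 1). It was 0.56 in CKD saline against sham saline (SE 0.18, adjusted p = 0.941) and 0.51 in CKD JV001 against sham JV001 (SE 0.18, adjusted p = 0.128, edgeR). Each of these groups enters 2 of the contrasts. Library 3 did not stand apart for Mcm2 in either CKD group. Its log2 fold change in CKD JV001 against CKD saline lay between -0.64 and -0.27 over 24 alternatives, and 1 of them passed the test.

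The subunits therefore did not keep 1 ratio across libraries. Mcm3 over Mcm2, both in FPKM, was 1.06, 1.41 and 3.78 in CKD JV001, against 0.374, 0.413 and 0.938 in CKD saline. It was 1.55, 0.978 and 0.690 in sham JV001, against 0.752, 0.359 and 0.561 in sham saline. The ratio was highest in CKD JV001 library 3 and lowest in sham saline library 2. The mean macrophage marker level, in log2 CPM, was 4.98, 4.95 and 6.22 in CKD JV001, 2.75, 2.69 and 5.03 in CKD saline, 3.25, 4.19 and 2.33 in sham JV001 and 3.23, 2.74 and 1.37 in sham saline. It was highest in the same library as the ratio, and its part was not tested. Cdc6, which loads the helicase, was higher in CKD JV001 (0.584 to 1.29 CPM) than in sham JV001 (0.196 to 0.309 CPM) without overlap. Cdc45, which joins the helicase when origins fire, lay between 1.33 and 4.44 CPM, and its groups overlapped in every contrast.

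**Figure D2:**
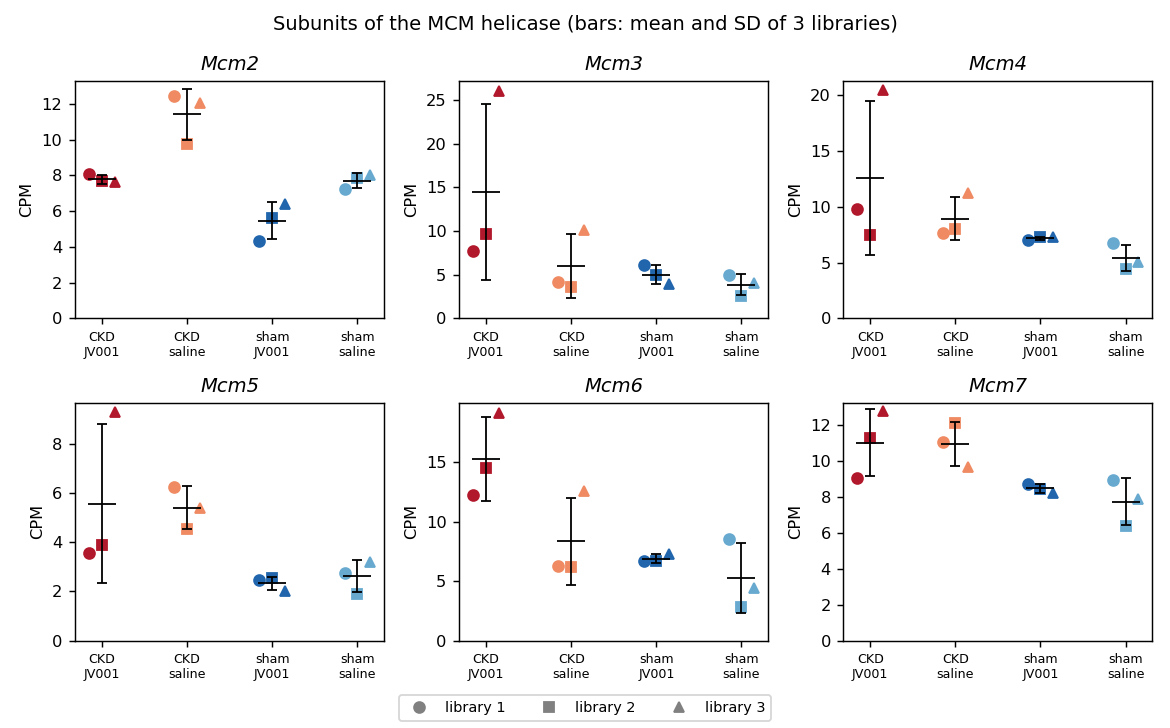
Level of the 6 MCM helicase subunits in CPM with TMM factors (axes start at 0), with 3 libraries a group as symbols and the mean and SD as bars. Mcm2 is highest in CKD saline (9.76 to 12.4 CPM) and lowest in sham JV001 (4.36 to 6.39 CPM), while Mcm3, Mcm4, Mcm5 and Mcm6 are highest in CKD JV001 library 3.

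All 3 enzymes of deoxynucleotide supply had log2 fold changes above 0 in CKD saline against sham saline (median 0.67), and they differed in direction in CKD JV001 against CKD saline. Rrm2, the ribonucleotide reductase subunit made in S phase, had 1.17, 2.31 and 2.26 CPM in CKD JV001, 6.26, 4.78 and 2.46 CPM in CKD saline, 0.959, 1.07 and 1.70 CPM in sham JV001 and 1.51, 1.83 and 2.59 CPM in sham saline. CKD JV001 was below CKD saline without overlap, though CKD saline library 3 was close to it. The log2 fold change was -1.23 (SE 0.43, adjusted p = 0.276, edgeR). Without CKD saline library 3 it was -1.53 (SE 0.41, adjusted p = 0.0374, edgeR), which passed, as did 21.3% of all tested genes. In CKD saline against sham saline it was 1.18 (SE 0.42, adjusted p = 0.941). Tk1, the thymidine kinase of the salvage pathway, had 0.602, 0.663 and 0.734 CPM in CKD JV001, 1.07, 1.52 and 1.51 CPM in CKD saline, 0.526, 1.37 and 1.03 CPM in sham JV001 and 1.29, 0.875 and 0.674 CPM in sham saline. It too was below CKD saline in all 3 CKD JV001 libraries, with a log2 fold change of -1.03 (SE 0.45, adjusted p = 0.276). Tyms, the thymidylate synthase, was described after its values were seen and had the opposite sign, with 2.15, 1.64 and 5.11 CPM in CKD JV001, against 0.555, 1.06 and 2.03 CPM in CKD saline (log2 fold change 1.29, SE 0.57, adjusted p = 0.276). Its highest value was again in CKD JV001 library 3, and without that library its log2 fold change was 0.65 (SE 0.56, adjusted p = 0.694).

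**Figure D3:**
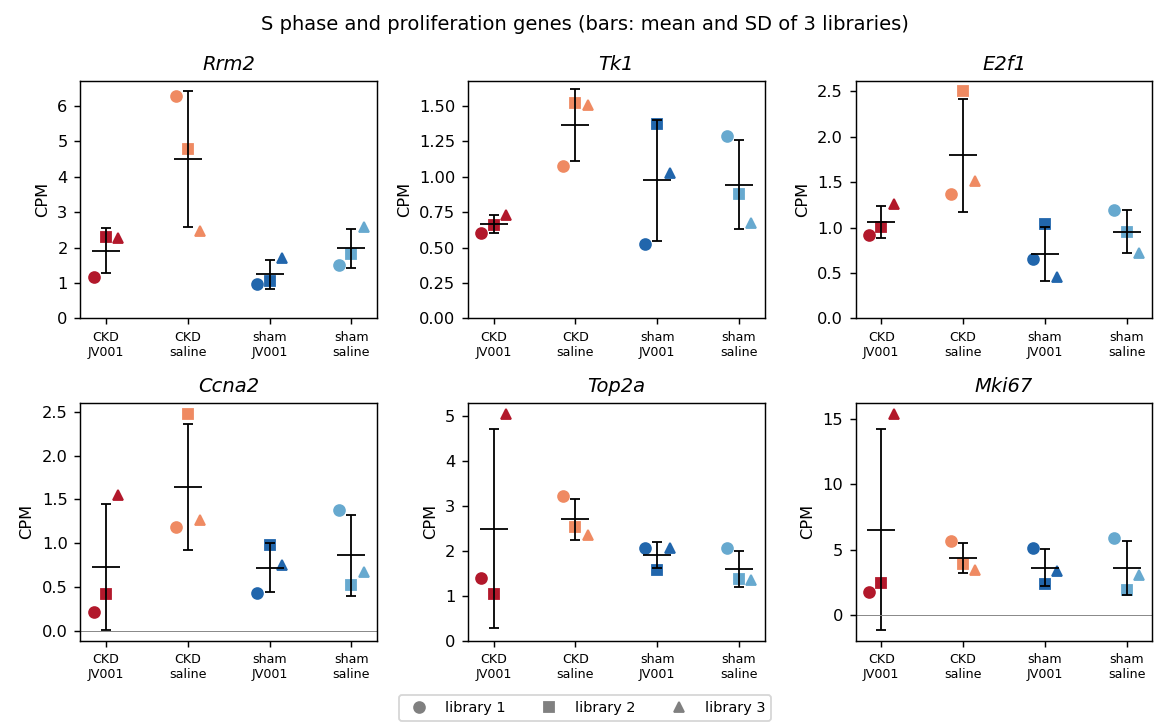
Level of 6 genes of S phase and proliferation in CPM with TMM factors (axes include 0), with 3 libraries a group as symbols and the mean and SD as bars. Rrm2, Tk1 and E2f1 are lower in CKD JV001 than in CKD saline without overlap, while Top2a and Mki67 have 1 high library in CKD JV001, library 3, at 5.05 and 15.4 CPM.

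Mki67 and Top2a are widely used to mark cycling cells. Mki67, which encodes the Ki-67 antigen of cycling cells, had 1.77, 2.44 and 15.4 CPM in CKD JV001, 5.66, 3.93 and 3.46 CPM in CKD saline, 5.13, 2.36 and 3.36 CPM in sham JV001 and 5.91, 1.88 and 3.03 CPM in sham saline. CKD JV001 library 3 held the highest value of all 12 libraries, and library 1 of the same group the lowest. The log2 fold change in CKD JV001 against CKD saline was 0.59 (SE 0.72, adjusted p = 0.609), and it was -1.04 without that library (SE 0.50, adjusted p = 0.672, edgeR). Top2a, the topoisomerase that untangles chromosomes, had 1.39, 1.03 and 5.05 CPM in CKD JV001, 3.22, 2.54 and 2.34 CPM in CKD saline, 2.07, 1.57 and 2.06 CPM in sham JV001 and 2.06, 1.38 and 1.35 CPM in sham saline. Its log2 fold change in the same contrast was -0.12 (SE 0.52, adjusted p = 0.895) and -1.15 without CKD JV001 library 3 (SE 0.36, adjusted p = 0.672). Without library 3 of both CKD groups it was -1.27 (SE 0.39, adjusted p = 0.0449, edgeR), which passed, as did 19.9% of all tested genes. Under limma voom with quality weights it was -1.20 (adjusted p = 0.00522), where 44.9% of all tested genes passed. Mki67 thus changed sign without CKD JV001 library 3, while Top2a was below 0 with and without it.

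Cyclin A2 acts in S phase and G2, and cyclin B2 at entry into mitosis. Ccna2 had 0.222, 0.424 and 1.56 CPM in CKD JV001, 1.18, 2.47 and 1.27 CPM in CKD saline, 0.433, 0.981 and 0.757 CPM in sham JV001 and 1.38, 0.530 and 0.674 CPM in sham saline. Its log2 fold change in CKD JV001 against CKD saline was -1.16 (SE 0.70, adjusted p = 0.329). Without library 3 of both CKD groups it was -2.51 (SE 0.73, adjusted p = 0.039, edgeR), which passed, as did 19.9% of all tested genes. Ccnb2 had 0.190, 0.265 and 0.822 CPM in CKD JV001, 0.407, 0.0330 and 0.437 CPM in CKD saline, 0.618, 0.252 and 1.33 CPM in sham JV001 and 0.514, 0.318 and 0.596 CPM in sham saline. The lowest of these rests on 1 read. Ccnb1 and Cdk1, the other parts of the mitotic kinase, lay between 0.0280 and 1.85 CPM, and their groups overlapped in every contrast.

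At the spindle checkpoint and anaphase, Cdc20 had 0.760, 1.19 and 2.70 CPM in CKD JV001, 0.740, 2.14 and 3.22 CPM in CKD saline, 1.02, 0.701 and 1.79 CPM in sham JV001 and 1.12, 0.530 and 0.596 CPM in sham saline. Its log2 fold change in CKD saline against sham saline was 1.44 (SE 0.65, adjusted p = 0.941), with overlapping groups, and 0.98 without CKD saline library 3 (SE 0.69). Bub1b, which encodes the checkpoint protein BubR1, had 1.11, 1.09 and 1.14 CPM in CKD JV001, 0.703, 1.29 and 1.67 CPM in CKD saline, 0.959, 0.981 and 1.51 CPM in sham JV001 and 1.29, 0.663 and 0.518 CPM in sham saline. Its CKD JV001 libraries were nearly equal, library 3 included. Aurka, Aurkb, Birc5, Plk1 and Bub1, kinases of mitosis and the Aurora B partner survivin, lay between 0 and 1.53 CPM. Of these, Aurka was higher in CKD saline (0.953 to 1.39 CPM) than in sham saline (0.239 to 0.643 CPM) without overlap.

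Centromere genes differed in level. Cenpa had 25.6, 28.0 and 10.3 CPM in CKD JV001, 29.9, 32.7 and 21.4 CPM in CKD saline, 23.9, 23.0 and 29.4 CPM in sham JV001 and 23.1, 32.9 and 35.6 CPM in sham saline. CKD JV001 library 3, which held the highest value of 19 of the 42 genes, held the lowest of Cenpa. Among the 42 genes this was the only lowest value in that library. The ventricular markers were also lowest there, with a mean of 10.36 log2 CPM, against 11.71 and 11.72 log2 CPM in libraries 1 and 2. Cenpe, the motor that holds kinetochores to microtubules, had 0.697, 0.239 and 1.32 CPM in CKD JV001, 0.0740, 0.957 and 0.318 CPM in CKD saline, 0.618, 0.140 and 0.424 CPM in sham JV001 and 0.514, 0.451 and 0.285 CPM in sham saline. For both genes the groups overlapped in every contrast.

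Spindle genes include Tpx2, which activates Aurora A, and Nusap1, which binds microtubules. The groups of Tpx2 overlapped in every contrast. Tpx2 had 0.380, 1.06 and 2.17 CPM in CKD JV001, 1.41, 1.29 and 1.23 CPM in CKD saline, 0.526, 0.729 and 0.697 CPM in sham JV001 and 1.41, 0.0796 and 0.648 CPM in sham saline. Nusap1 had 0.728, 0.610 and 0.763 CPM in CKD JV001, 0.296, 0.396 and 0.993 CPM in CKD saline, 0.0928, 0.0561 and 0.364 CPM in sham JV001 and 0.643, 0.371 and 0.544 CPM in sham saline. Nusap1 was lowest in sham JV001, below both CKD JV001 and sham saline without overlap. The log2 fold changes were 2.02 in CKD JV001 against sham JV001 (SE 0.74, adjusted p = 0.13) and -1.59 in sham JV001 against sham saline (SE 0.73, adjusted p = 1, edgeR). Both contrasts use the same sham JV001 libraries, the lowest of which held 2 reads. Kif11, the motor that pushes spindle poles apart, lay between 0.186 and 1.61 CPM.

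Genes of cytokinesis organise the cleavage furrow and the midzone. Racgap1 had 1.84, 1.43 and 3.11 CPM in CKD JV001, 1.55, 1.29 and 2.07 CPM in CKD saline, 1.73, 0.505 and 0.909 CPM in sham JV001 and 1.35, 0.663 and 0.777 CPM in sham saline. Its log2 fold change in CKD JV001 against sham JV001 was 1.02 (SE 0.51, adjusted p = 0.21), and 0.64 without CKD JV001 library 3 (SE 0.54, adjusted p = 0.53). Kif20a had 2.03, 1.62 and 1.35 CPM in CKD JV001, 2.74, 1.81 and 1.23 CPM in CKD saline, 1.82, 1.12 and 1.36 CPM in sham JV001 and 2.09, 1.67 and 1.79 CPM in sham saline. Library 3 was the lowest of its group in both CKD groups. Anln, the scaffold anillin, was described after its values were seen, with 1.995, 1.64 and 1.73 CPM in CKD JV001, against 1.11, 0.561 and 0.879 CPM in sham JV001 (log2 fold change 1.07, SE 0.47, adjusted p = 0.17). Kif23, Prc1 and Ect2 lay between 0.0265 and 2.54 CPM with overlapping groups in every contrast.

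Some of these genes share exon bases with neighbours. In a GENCODE annotation of an older mouse build, 15 of the 42 genes share exon bases with another annotated gene, 12 of them with a protein-coding one. The largest shares of the exon bases were 29.3% for Kif20a with Cdc23, 23.4% for Ccnd1 with LTO1 and 17.4% for Ccne2 with Ints8, all on the opposite strand. The strand setting of the counting was not stated, so the effect of the shared bases on these counts is not known.

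In CKD saline against sham saline, which asks what the disease model does on its own, 37 of 42 log2 fold changes were above 0, with a median of 0.58. Over all tested genes 51.4% were above 0, with a median of 0.01. The highest, 2.66 for Bub1 (SE 1.33), rests on libraries of 0 to 22 reads. Groups did not overlap in 7 genes, all higher in CKD saline (E2f1, Mcm2, Mcm4, Mcm5, Mcm7, Top2a and Aurka), where 4.12% of all tested genes were higher without overlap. No gene of the 42 was lower without overlap, against 6.44% of all. By role, log2 fold changes were above 0 for 8 of 8 genes of replication licensing and firing (median 0.61), 7 of 7 mitotic kinases and checkpoint genes (median 1.16) and 3 of 5 G1 cyclins (median 0.19). At an unadjusted p under 0.05, 5 were higher, among 2.15% of all tested genes, and 0 lower, among 2.81%. The smallest adjusted p was 0.941 (edgeR). Without CKD saline library 3 the count above 0 was 34 and the median 0.46, without sham saline library 2 they were 33 and 0.39, and without sham saline library 1 they were 37 and 0.85.

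Sham saline library 2 held the lowest value of 15 of the 42 genes. Its endothelial markers had a mean of 5.42 log2 CPM, against 7.18 and 5.84 log2 CPM in libraries 1 and 3. All 10 endothelial markers and all 10 macrophage markers had log2 fold changes above 0 in CKD saline against sham saline, and 0 of either list passed in edgeR or had an unadjusted p under 0.05. The endothelial markers summed to 946.5 to 3363 CPM in CKD saline and 488 to 1709.7 CPM in sham saline, and the macrophage markers to 104 to 527 CPM in CKD saline and 39.4 to 192 CPM in sham saline. None of these markers was at 0 in all libraries of a group. Median log2 fold changes were 0.88 for endothelial and 1.22 for macrophage markers, and higher for neutrophil, erythroid and B cell markers. Log2 fold changes were above 0 for 9 of 9 tested neutrophil markers (median 3.35), 5 of 5 tested erythroid markers (median 2.97) and 5 of 5 B cell markers (median 2.25). In edgeR 0 of these passed, and 4, 4 and 3 of them had an unadjusted p under 0.05. Of the T and NK cell markers, 4 of 6 tested were above 0 (median 0.80), and 0 had an unadjusted p under 0.05 (edgeR). The 5 B cell markers summed to 0.444, 0.990 and 10.01 CPM in CKD saline and 0.725 to 1.09 CPM in sham saline. The erythroid markers summed to 47.8, 53.2 and 666 CPM in CKD saline and 57.2, 34.4 and 10.3 CPM in sham saline. Both sums were highest in CKD saline library 3. The part of any of these markers in the values of the cell cycle genes was not tested.

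In CKD JV001 against CKD saline, which asks what JV001 does in the disease model, the 42 genes were split. There were 24 log2 fold changes above 0 (all tested genes 51.4%), and the median was 0.06, with 0.02 over all genes. Groups did not overlap in 4 genes, all lower in CKD JV001 (E2f1, Mcm2, Rrm2 and Tk1), where 6.04% of all tested genes were lower without overlap. None was higher without overlap, against 8.22% of all. At an unadjusted p under 0.05, 3 were higher (Mcm3, Mcm6 and Tyms), among 9.29% of all tested genes, and 3 lower (Mcm2, Rrm2 and Tk1), among 8.75%. These shares of the 42 genes lie near or below those of all genes, except for non-overlapping genes with CKD JV001 lower, which were 9.52% of the 42. The 2 CKD groups were taken as paired by library number. This pairing came from the values, in which library 3 stood apart in both groups, and the labels tie no number to an animal. Without a block, the log2 fold change of Mcm3 was 1.27 (SE 0.51, adjusted p = 0.276, edgeR), with overlapping groups. A fit with the number as a block within these groups was added after the data were seen. With it Mcm3 passed (log2 fold change 1.22, SE 0.27, adjusted p = 0.0173, edgeR), 1 of the 42 genes, among 21.1% of all tested genes. Under this pairing Mcm3 was higher in CKD JV001 than in CKD saline in 3 of 3 pairs, as were Mcm6, Tyms and Ccnd1. Because the pairing was taken from these same values, the pair counts and the p-values with the block are not an independent test. With the block Mcm6 had an adjusted p of 0.0727, Tyms of 0.061 and Ccnd1 of 0.0982. Mcm2 had a log2 fold change of -0.54 (adjusted p = 0.0543), and Rrm2 of -1.19 (adjusted p = 0.0907). The groups of both genes did not overlap, so any pairing would put CKD JV001 lower in every pair.

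With all libraries the 42 genes thus had almost no direction in this contrast. Without CKD JV001 library 3, 12 of 42 log2 fold changes were above 0 and the median was -0.31; for the 24 genes of S, G2 and M these were 7 and -0.41, against 13 and 0.11 with it. The mean level of these 24 genes was -0.39, -0.50 and 0.81 log2 CPM in CKD JV001 and -0.16, 0.25 and 0.07 log2 CPM in CKD saline. Library 3 of CKD JV001 also held more macrophage, fibroblast and neutrophil RNA, as the plot of gene lists by library shows. Fibroblast markers differed in libraries 1 and 2 as well, with means of 6.44 and 6.54 log2 CPM, against 4.35 and 4.30 log2 CPM in CKD saline. All 10 fibroblast markers were above 0 in this contrast, 9 without overlap, and 8 had an unadjusted p under 0.05 (edgeR). All 6 atrial cardiomyocyte markers were higher without overlap, and all 12 ventricular markers were below 0. All 9 tested neutrophil markers had log2 fold changes above 0 in this contrast, and in edgeR 0 passed and 1 had an unadjusted p under 0.05. The 10 neutrophil markers summed to 20.4 to 425 CPM in CKD JV001, 6.44 to 87.8 CPM in CKD saline, 3.06 to 7.32 CPM in sham JV001 and 2.60 to 5.21 CPM in sham saline, with Camp and Ngp at 0 in all sham JV001 libraries and Mmp8 and Ngp in all sham saline libraries. The part of any of these markers in the cell cycle values was not tested.

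**Figure D4:**
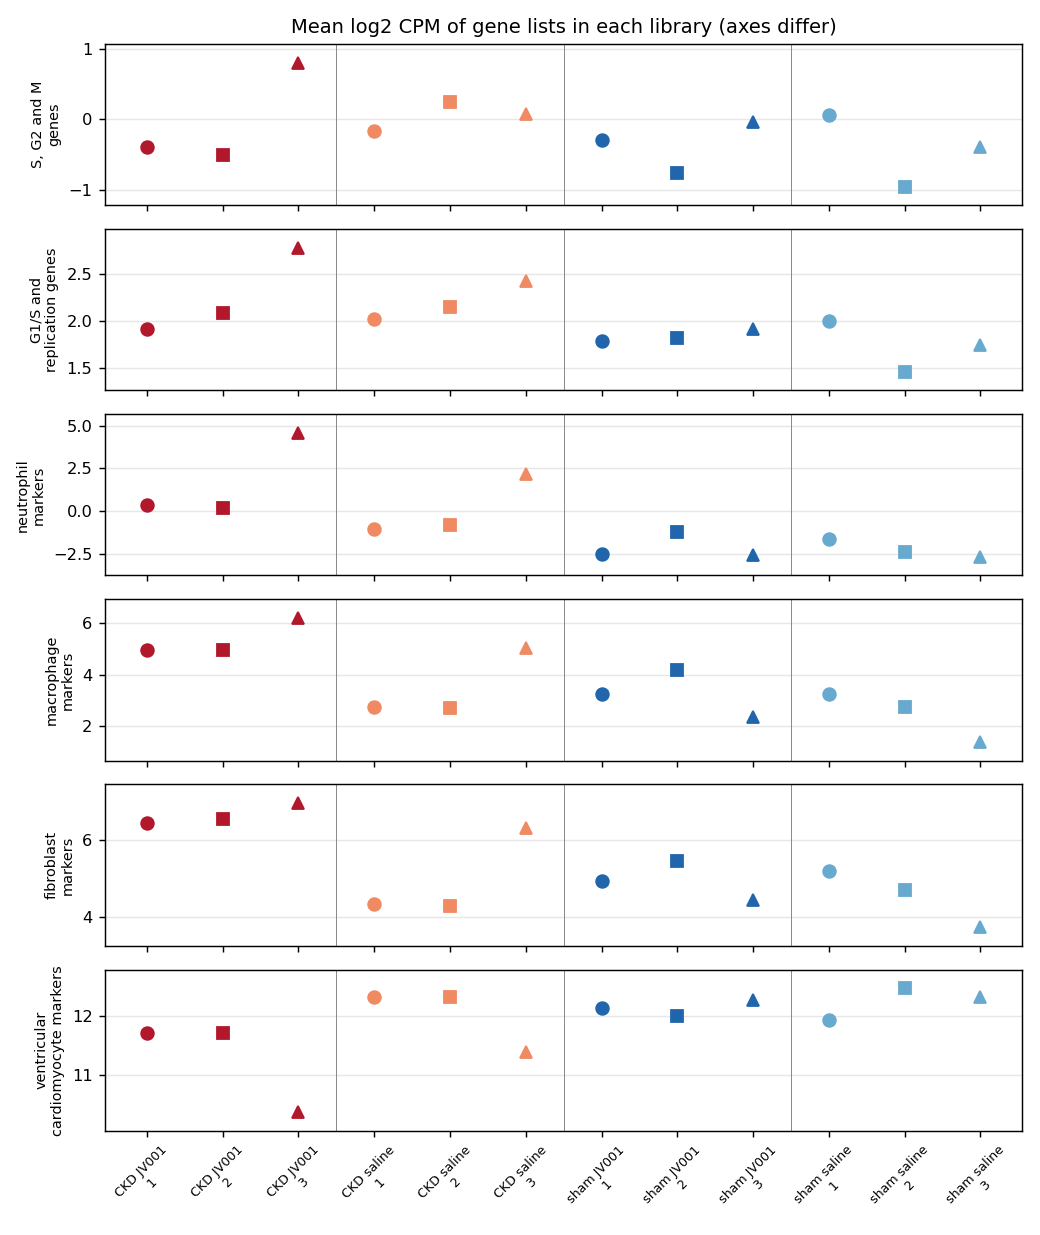
Mean log2 CPM of the 24 genes of S, G2 and M, the 18 genes of G1/S and replication and 4 lists of cell type markers in each of the 12 libraries (axes differ between panels). CKD JV001 library 3 has the highest S, G2 and M level (0.81), the highest neutrophil level (4.59) and the lowest ventricular cardiomyocyte level (10.36).

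In sham JV001 against sham saline, which asks what JV001 does without the disease model, 23 of 42 log2 fold changes were above 0, where 49.2% of all tested genes were. The median was 0.03, with -0.01 over all genes. Ccne2 and Mcm4 were higher without overlap, and Mcm2 and Nusap1 lower, against 5.69% and 6.71% of all tested genes. Mcm2 had the only unadjusted p under 0.05, lower in sham JV001, where 1.23% of all tested genes were lower and 1.61% higher. Every adjusted p was 1 (edgeR). Without sham saline library 1 the median of the 42 genes was 0.31 and without sham saline library 2 it was -0.04.

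In CKD JV001 against sham JV001, the disease model with JV001 in both groups, 33 of 42 log2 fold changes were above 0 (all tested genes 51.1%) and the median was 0.44, with 0.02 over all genes. Groups did not overlap in 11 genes, all higher in CKD JV001: Ccnd3, the 6 MCM subunits, Cdc6, Tyms, Nusap1 and Anln. That is 26.2% of the 42, where 22.9% of all tested genes were higher without overlap, so the count itself is near the background. No gene of the 42 was lower without overlap, against 20.1% of all tested genes. At an unadjusted p under 0.05, 7 were higher, among 14.8% of all tested genes, and 0 lower, among 12.7%. Without CKD JV001 library 3, 22 of 42 were above 0 and the median was 0.10. The genes of S, G2 and M then had 10 of 24 above 0 with a median of -0.21, while the 6 MCM subunits were all above 0 with a median of 0.60. The 10 fibroblast and 10 macrophage markers were all above 0 in this contrast. In edgeR 0 of them passed and 9 of each list had an unadjusted p under 0.05, and the groups did not overlap for any of these 20 markers. All 9 tested neutrophil markers (median 5.89) and all 5 tested erythroid markers (median 2.92) were above 0 and had an unadjusted p under 0.05, and 0 passed. The 12 ventricular markers were all below 0 (median -0.72), 9 of them without overlap. The part of these markers in the cell cycle values was not tested.

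**Figure D5:**
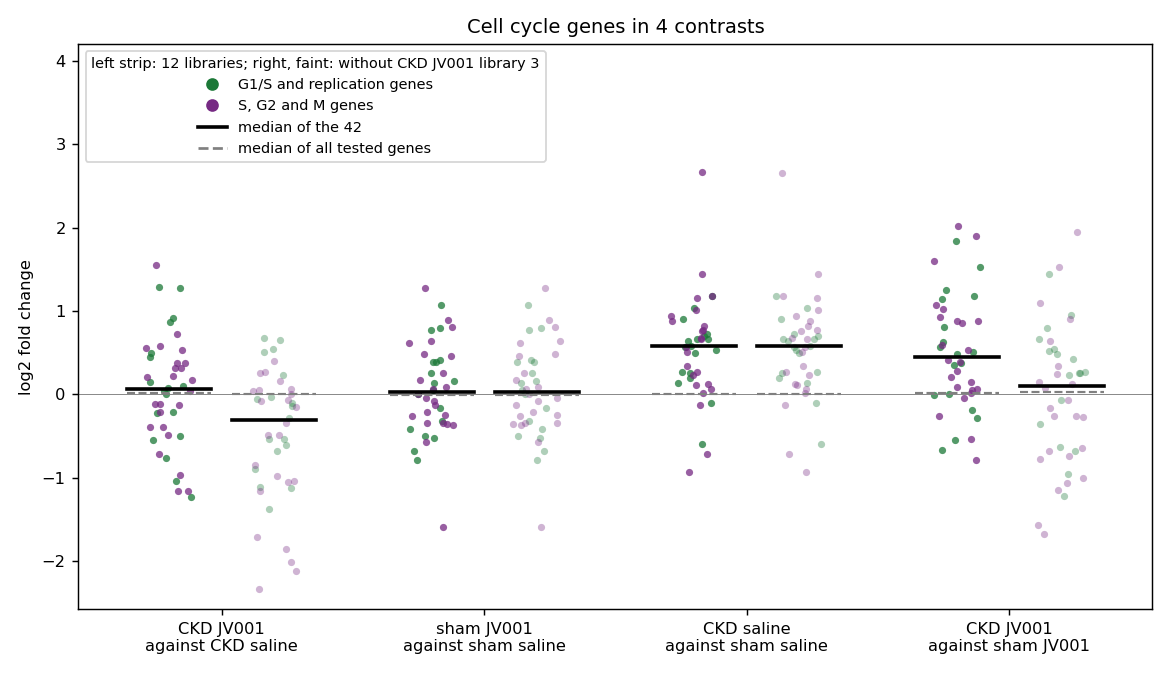
Log2 fold change of each of the 42 genes in 4 contrasts, in all 12 libraries (left strip) and without CKD JV001 library 3 (right, faint), with the median of the 42 genes as a solid line and that of all tested genes dashed. The median in CKD JV001 against CKD saline is 0.06 with all libraries and -0.31 without that library. CKD saline against sham saline does not use that library, and its median is 0.58 either way.

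The interaction of CKD and JV001, which compares the JV001 effect in CKD with that in sham, had 21 of 42 log2 values above 0 (all tested genes 49.9%) and a median of -0.02. No gene had an unadjusted p under 0.05, where 2.09% of all tested genes were higher and 1.69% lower, and the smallest adjusted p was 0.84 (edgeR). For Mcm2 the interaction was -0.05 on the log2 scale. Without CKD JV001 library 3 the interaction was above 0 in 13 of 42 genes, with a median of -0.47.

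Other cell cycle genes were read from 4 lists. Of 31 other replication genes, 30 were tested and 0 passed in any contrast; 24 had log2 fold changes above 0 in CKD saline against sham saline (all tested genes 51.4%), with a median of 0.23. At an unadjusted p under 0.05, 5 of the 30 were higher in that contrast, among 2.15% of all tested genes, and 0 lower, among 2.81%. Pcna, the sliding clamp of replication and the most abundant of them, had 33.3, 32.6 and 30.5 CPM in CKD saline, against 26.5, 23.7 and 26.9 CPM in sham saline, without overlap (log2 fold change 0.32, SE 0.18, adjusted p = 0.941). Gmnn, geminin, which blocks a further round of licensing, had 31.3, 35.3 and 10.01 CPM in CKD JV001 and 47.3, 45.4 and 25.9 CPM in CKD saline. Like Cenpa, it was lowest in library 3 of each CKD group.

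Of 44 other mitosis genes 37 were tested, and 29 had log2 fold changes above 0 in CKD saline against sham saline (all tested genes 51.4%), with a median of 0.72. Among them Cenpf, a kinetochore protein, passed in CKD JV001 against sham JV001, and it fell. Cenpf had 6.27, 4.35 and 7.19 CPM in CKD JV001, 10.7, 10.2 and 9.49 CPM in CKD saline, 21.4, 19.6 and 34.5 CPM in sham JV001 and 24.9, 37.5 and 27.7 CPM in sham saline. Every CKD library was below every sham library. The log2 fold change was -2.08 in CKD JV001 against sham JV001 (SE 0.27, adjusted p = 0.0353) and -1.57 in CKD saline against sham saline (SE 0.26, adjusted p = 0.405, edgeR). The call was kept in 11 of 23 alternatives, with adjusted p from 3.46e-08 to 0.174. It was lost without any 1 library (adjusted p from 0.0685 to 0.174), other than CKD saline library 3 and sham saline library 1, without which it was kept.

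All 15 cyclin-dependent kinases and E2F family genes and all 13 inhibitors and pocket proteins were tested. With all libraries 0 of them passed in any contrast (edgeR). At an unadjusted p under 0.05 in CKD JV001 against sham JV001, the kinase and E2F list had 3 of 15 higher and 1 lower, and the inhibitor list 4 of 13 higher and 1 lower, where 14.8% of all tested genes were higher and 12.7% lower. Cdk4, partner of the D-type cyclins, had 35.1, 31.1 and 31.5 CPM in CKD JV001, against 24.8, 24.0 and 23.6 CPM in sham JV001, without overlap (log2 fold change 0.43, SE 0.12, adjusted p = 0.0965). Without library 3 of both CKD groups the log2 fold change of Cdk4 was 0.45 (SE 0.11, adjusted p = 0.0319, edgeR). This passed, as did 9.38% of all tested genes. Without CKD JV001 library 3 alone it was 0.46 (SE 0.12, adjusted p = 0.156, edgeR). E2f6, a repressor of the family, had 81.5, 84.3 and 42.2 CPM in CKD JV001, against 86.7, 96.6 and 98.5 CPM in sham JV001, also without overlap. Without CKD JV001 library 3 its log2 fold change was -0.18 (SE 0.20, adjusted p = 0.636, edgeR). Btg2, an antiproliferative gene and the most abundant of the inhibitor list, had 371, 356 and 259 CPM in CKD JV001 and 455, 458 and 459 CPM in CKD saline. CKD JV001 was lower without overlap (log2 fold change -0.48, SE 0.25, adjusted p = 0.294). Without CKD JV001 library 3 the log2 fold change of Btg2 was -0.33 (SE 0.26, adjusted p = 0.682, edgeR). Cdkn1a, the p21 inhibitor of cyclin-dependent kinases, had 34.3, 29.6 and 307 CPM in CKD JV001, 21.0, 16.9 and 99.98 CPM in CKD saline, 81.4, 49.3 and 29.2 CPM in sham JV001 and 67.9, 17.2 and 8.19 CPM in sham saline. It was highest in library 3 of both CKD groups, which also held the highest levels of Mcm3. In CKD JV001 against CKD saline the log2 fold change of Cdkn1a was 1.43 (SE 1.04, adjusted p = 0.397), and -0.52 without CKD JV001 library 3 (SE 0.91, adjusted p = 0.83).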

How the data were processed

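The authors deposited a table of read counts per gene and FPKM for 12 libraries of polyadenylated RNA. Per the submitters' processing notes, reads were handled with fastp, HISAT2 and HTSeq on GRCm39; their versions, and whether counting used strand, are not stated in the labels or the notes. The deposited FPKM (fragments per kilobase, scaled to library size) gave 1 gene length in all libraries for 100% of 10249 genes checked, within a tolerance of 0.01. The 42 genes and the other lists were chosen with earlier results of these data known.

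From the counts, all 12 libraries were fitted in 1 model with edgeR 4.0.16 in R 4.3.3 (TMM, filterByExpr with a minimum count of 10, quasi-likelihood F test) over 15004 genes and 5 contrasts, with Benjamini-Hochberg adjustment within each. The code was tested on simulated data with the same spread for every gene and no library apart, which does not measure power in these data. Totals were 25233561 to 37000337 counts, and 3 counts, the limit that a count of 0 allows, equal 0.0777 to 0.119 CPM. This limit covers counting error only. The SE of each log2 fold change comes from the edgeR fit and includes the spread between libraries. For a single gene, 3 libraries against 3 cannot go below an exact permutation p of 0.1.

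By rule, values per library were given for any gene of the 42 that passed, for the 2 with the highest mean FPKM in each role, and for Mki67 and Top2a; from each other list, for up to 4 genes that passed or otherwise the 2 with the highest mean FPKM, and for Cenpf. Genes outside this rule are said to be described after their values were seen. Alternatives were RLE scaling, no filter or a stricter one (mean of 10 reads, with 1 CPM reached in 3 libraries), a replicate block, only the groups compared, each library left out, library 3 of both CKD groups left out, libraries 1 and 2 of each CKD group summed, DESeq2 1.42.0, limma 3.58.1 voom with quality weights, and limma on deposited FPKM with a pseudocount of 1 or of 0.1, kept where the mean was at least 0.5, on the log2 scale. The labels tie no library number to an animal or day. Deviations from the group means correlated at 0.289 to 0.492 in all 3 same-numbered pairs of CKD JV001 and CKD saline. These were taken as paired. The other same-numbered pairs, at -0.385 to 0.216, were not. Deviations of the 3 libraries of a group balance each other, and library 3 stood apart in both CKD groups. The 3 correlations are therefore not independent. Libraries of unlike number were not compared, so the pairing is an assumption. A block within the CKD groups was added after the data were seen. Motifs were matched in RefSeq promoter windows (GRCm38.p6), used for sequence only.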

Additional observations from a re-analysis of the deposited data

How the results depend on the processing

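Fold changes of 20 of the 42 genes, those given per library by rule, and of Cenpf were recomputed under the alternatives. Of these 2280 values, 2167 kept their direction and side of the threshold or moved by less than their spread, and 77 moved further. Another 23 passed the threshold only under the alternative, 12 lost it and 1 reversed. All 12 that lost it were for Cenpf, which is not among the 42 genes. The counts of genes that follow are taken from all 42. In CKD JV001 against CKD saline the count of the 42 genes that passed, 0 as reported, lay between 0 and 4 with each library left out in turn. It was 4 without CKD saline library 3 (21.3% of all tested genes passed). It was 6 without library 3 of both CKD groups (Ccna2, Ccnd1, Ccnd2, Mcm3, Rrm2 and Top2a, 19.9%). It was 1 with the replicate block within the CKD groups (Mcm3, 21.1%) and 15 with voom and quality weights (44.9%). The median log2 fold change of the 42 genes in that contrast was 0.06, ranged from -0.31 to 0.29 with each library left out, and was -0.34 without library 3 of both CKD groups and -0.07 with the block within the CKD groups. In CKD JV001 against sham JV001 the count was 1 with only the groups compared (Mcm6, 5.51% of all), 0 to 1 with each library left out (Mcm3 without CKD saline library 3, 10.4%), 3 with DESeq2 (Mcm3, Mcm5 and Mcm6, 12.6%) and 5 with voom (Anln, Mcm2, Mcm3, Mcm6 and Nusap1, 29.6%), and its median ranged from 0.10 to 0.65 with each library left out. The other such ranges were -0.04 to 0.31 in sham JV001 against sham saline, 0.39 to 0.85 in CKD saline against sham saline and -0.47 to 0.10 for the interaction, lowest without CKD JV001 library 3. Mki67 in CKD JV001 against CKD saline reversed under voom, at -1.04 (adjusted p = 0.0321), against 0.59 as reported. Where the alternative left out no library, the cause was not tested. With 1 replicate block over all 4 groups, 0 of the 42 genes passed in any contrast, and their medians were -0.01 in CKD JV001 against CKD saline, 0.04 in sham JV001 against sham saline, 0.56 in CKD saline against sham saline, 0.42 in CKD JV001 against sham JV001 and -0.08 for the interaction. The FPKM alternatives tested 15 of the 42 genes and the stricter filter 29. On the FPKM scale the median of all genes in CKD JV001 against CKD saline was 0.10 with a pseudocount of 1 and 0.13 with 0.1. Of the 42 genes, 27 had a median of fewer than 50 reads.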
